A study of Mus musculus with 8 samples.

Results

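The 39 genes described here encode the contractile machinery of skeletal muscle: troponins, myosins, actins and the proteins that anchor, align and assemble them. They were taken as the probe sets whose single gene symbol in the array's annotation is a member of that list. All 39 genes were found, each with 1 probe set, among 22206 probe sets tested, of which 19572 carried 1 symbol. By isoform class, 11 genes belong to fast fibres, 7 to slow fibres and 3 to developing muscle, and 18 are shared between fibre types.

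RNA from the back skin of male mice of the inbred C3H strain was hybridised to 8 Clariom S Mouse arrays in a study of hair growth under tieghemelin and maslinic acid. The 4 groups of 2 arrays were 1% minoxidil, 1% tieghemelin, 1% maslinic acid (a pentacyclic triterpene acid) and Milli-Q water as the control. Minoxidil is a hair growth drug, and array 2 of that group is called 1% in its description but 2% in its source name. All mice were 7 weeks old on entry, had 7 days of acclimatization, were depilated under isoflurane and, in groups of 8, were treated on the back each day for 20 days. The titles call the control arrays the control of tieghemelin and maslinic acid, and minoxidil was set against the same arrays. Which mice each array holds is not stated, so every p-value here reflects the scatter among arrays, and that scatter may be technical. How deep the skin was cut is not given in the sources used here.

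A sarcomere shortens when myosin heads of the thick filament pull on actin of the thin filament. Troponin and tropomyosin on the thin filament open the myosin sites when calcium rises, and the Z-disc and M-band hold both filaments in register. Fast, slow and developing fibres use different genes for the same part. Mouse skin has its own sheet of striated muscle below the dermis and fat, the panniculus carnosus, which is mostly of fast fibres. In RNA from whole skin, fewer muscle cells and less RNA per muscle cell cannot be told apart.

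Values are the deposited log2 values, on which 1 unit is a doubling. A level is compared between arrays for the same gene, never between genes. Differences are given as log2 differences from limma's linear model, with adjusted p-values by Benjamini-Hochberg over all 22206 probe sets. The study's own thresholds, a 1.7-fold difference or more with p at or under 0.05 before adjustment, are used for counts. The antigenomic probe sets, designed to bind nothing in the mouse, had medians of 7.51 and 7.33 on the minoxidil arrays, 7.02 and 6.97 on the tieghemelin arrays, 6.96 and 7.08 on the maslinic acid arrays, and 7.75 and 7.61 on the control arrays, and are used as each array's background.

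Control array 1 was unlike the rest. Across probe sets its correlation with the other 7 arrays was 0.518 to 0.538, whereas any pair of those 7 reached 0.901 to 0.966. Results against control are therefore given with all arrays and without control array 1, where control array 2 alone stands for the control and is assumed to vary like the other groups. Of 10 keratinocyte markers, 6 were above background on control array 1. This is near the share of all probe sets above background there, 56.9%, so the count cannot check the labelled tissue. That array was the lowest of 8 for 2 of them (Krt10 and Krt14), the highest for 1 (Dsg3) and between the others for 7. Over all probe sets it was the lowest for 35.5% and the highest for 29.8%.

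**Figure D1:**
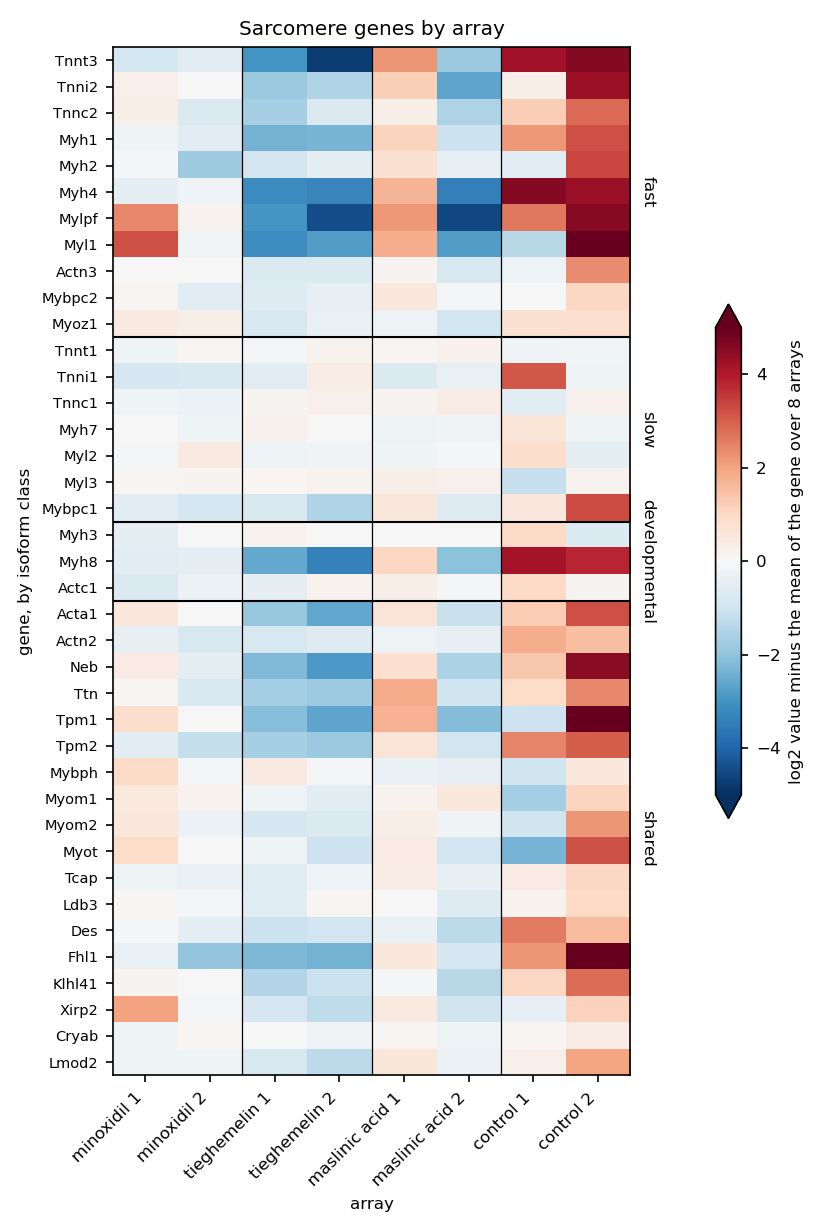
Heat map of the 39 genes (rows, grouped by isoform class) on the 8 arrays (columns), coloured by the log2 value minus the mean of that gene over the 8 arrays, with colours ending at 5 units either side. Control array 2 is the highest array for 25 of the 39 genes, and the tieghemelin arrays and maslinic acid array 2 hold most of the lowest values of the fast genes.

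Across the 39 genes, values were lower in each treated group than in control skin for most members. The median log2 difference was -1.34 with minoxidil, -2.09 with tieghemelin and -1.40 with maslinic acid, when the median over all probe sets was 0.058, 0.045 and 0.047. At the study's thresholds, 16 of 39 genes were lower with minoxidil, against a background of 4.29% of all probe sets. With tieghemelin 21 were lower (background 4.73%) and with maslinic acid 15 were lower (background 4.45%). With all 8 arrays, no member was higher at those thresholds in any of the 6 comparisons between groups. By limma with Benjamini-Hochberg adjustment, 0 of the 22206 probe sets passed an adjusted p of 0.05 with all 8 arrays in any of the 6 comparisons. The counts of probe sets with an unadjusted p of at most 0.05 were 2502 for minoxidil, 2609 for tieghemelin and 2409 for maslinic acid.

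The 3 comparisons share their control arrays, so they are given side by side and not as separate support for one another. Both minoxidil arrays lay below both control arrays for 23 genes (15.6% of all probe sets), both tieghemelin arrays for 26 (18.4%) and both maslinic acid arrays for 17 (17.9%). Control array 2 was the highest of the 8 arrays for 25 genes and control array 1 for 9, whereas over all probe sets these shares were 12.9% and 29.8%. Tieghemelin array 2 was the lowest for 11 genes and maslinic acid array 2 for 8. Tieghemelin array 1 and control array 1 were each the lowest for 6. Over all probe sets the shares of these arrays were, in that order, 6.7%, 8.4%, 8.0% and 35.5%.

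Without control array 1, 25 genes were lower with minoxidil at the study's thresholds (background 6.38%), 29 with tieghemelin (background 7.12%) and 26 with maslinic acid (background 6.57%). The medians were then -2.20, -3.05 and -2.14. The minoxidil count was 8 without minoxidil array 2 and 10 without minoxidil array 1, when 2.54% and 2.17% of all probe sets were called lower.

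With control array 1 alone as the control, some members were higher. Without control array 2, 12 genes were lower and 5 higher with minoxidil, 21 lower and 4 higher with tieghemelin, and 16 lower and 5 higher with maslinic acid. Over all probe sets, 20.7%, 21.2% and 21.0% were then called lower and 26.6%, 26.3% and 26.3% higher. The higher genes were Myl3, Myom1 and Myot with each treatment, Myom2 with minoxidil and maslinic acid, Mybph with minoxidil and tieghemelin, and Tnnc1 with maslinic acid. They are named here after their values were seen. With control array 1 left out, limma's Benjamini-Hochberg adjusted p was under 0.05 for 18 of the 39 genes with tieghemelin, when 79 probe sets, or 0.356% of all, passed. These were Tnnt3, Tnnc2, Myh1, Myh2, Myh8, Acta1, Actn2, Actn3, Neb, Tpm1, Tpm2, Mybpc1, Myom2, Myot, Des, Fhl1, Klhl41 and Lmod2, of which 5 are fast, 1 is slow, 1 is developmental and 11 are shared. With minoxidil 1 probe set passed, that of Fhl1, and with maslinic acid 1 passed, that of the glycolytic enzyme gene Aldoa, which is no member.

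Troponin is the calcium switch of the thin filament and has a subunit that binds tropomyosin (T), one that inhibits (I) and one that binds calcium (C). Tnnt3, fast troponin T, read 10.80 and 11.13 on the minoxidil arrays, 8.68 and 6.94 on the tieghemelin arrays, 13.88 and 9.82 on the maslinic acid arrays, and 15.87 and 16.25 on the control arrays. Every treated array was below both control arrays, and tieghemelin array 2 was below its background median. The log2 difference from control was -5.10 (34.2-fold lower) with minoxidil, -8.26 (306-fold lower) with tieghemelin and -4.21 (18.5-fold lower) with maslinic acid, each with an SE of 1.15. These met the study's thresholds and had limma adjusted p-values of 0.44, 0.364 and 0.448. Without control array 1 Tnnt3 fell by 8.44 with tieghemelin (limma adjusted p = 0.0274).

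Tnni2, fast troponin I, read 11.25 and 11.03 with minoxidil, 9.14 and 9.50 with tieghemelin, 12.17 and 8.35 with maslinic acid, and 11.28 and 15.26 in control skin. Control array 1 lay between the maslinic acid arrays and close to the minoxidil arrays, so only control array 2 was above all treated arrays. The difference met the study's thresholds with tieghemelin alone (-3.95, SE 1.41). Tnnc2, fast troponin C, read 10.46 and 9.43 with minoxidil, 8.49 and 9.45 with tieghemelin, 10.46 and 8.62 with maslinic acid, and 11.39 and 13.01 in control skin. All 6 treated arrays were below both control arrays, and the differences of -2.25, -3.23 and -2.66 (SE 0.78) met the thresholds.

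The slow subunits did not share this order. Tnnt1, slow troponin T, read 9.57 and 9.82 with minoxidil, 9.72 and 9.94 with tieghemelin, 9.88 and 9.98 with maslinic acid, and 9.60 and 9.63 in control skin. Its 8 arrays spanned 0.41 log2 units, against 9.31 for Tnnt3, and every array was above background. Tnnc1, the troponin C of slow and heart muscle, read 9.78 and 9.70 with minoxidil, 10.12 and 10.24 with tieghemelin, 10.13 and 10.38 with maslinic acid, and 9.46 and 10.21 in control skin, and no difference from control exceeded 0.42. Tnni1, slow troponin I, was above background on control array 1, at 10.32, and on tieghemelin array 2, at 7.59, and on no other array. With minoxidil, Tnni1 met the study's thresholds, at least 2.35-fold lower than control, a bound that rests on control array 1: on control array 2 it read 6.99, below background.

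**Figure D2:**
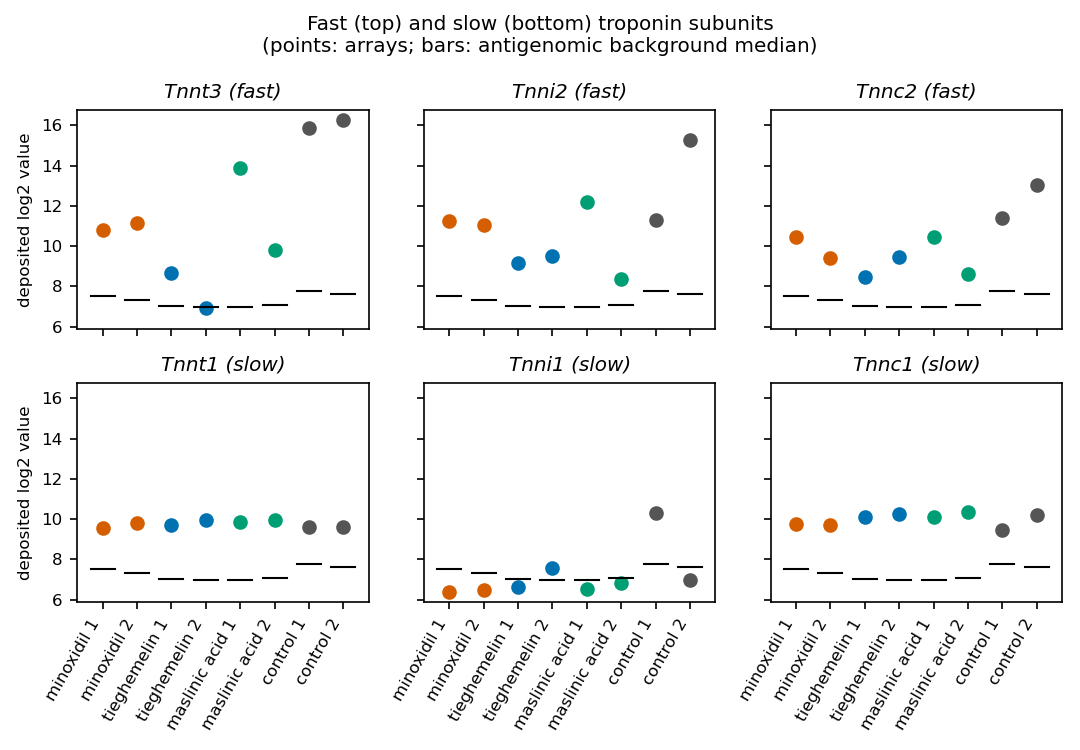
Deposited log2 values (y axis) of the fast troponin genes Tnnt3, Tnni2 and Tnnc2 (top) and the slow genes Tnnt1, Tnni1 and Tnnc1 (bottom) on each array (x axis); points are arrays and black bars are the background median of that array. The fast genes span 4.52 to 9.31 log2 units over the 8 arrays, whereas Tnnt1 spans 0.41.

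Myosin heavy chains are the motor of the thick filament, and each fibre type has its own gene. Myh4, the heavy chain of the fastest (type IIb) fibres, read 11.97 and 12.25 with minoxidil, 9.26 and 9.15 with tieghemelin, 14.14 and 9.05 with maslinic acid, and 17.03 and 16.77 in control skin. The minoxidil pair, the tieghemelin pair and the control pair each lay within 0.3 log2 units, whereas the maslinic acid arrays differed by 5.09. The differences from control were -4.79 (27.6-fold lower), -7.69 (207-fold lower) and -5.30 (39.4-fold lower), each with an SE of 1.31, at limma adjusted p-values of 0.44, 0.364 and 0.448. Myh4 did not pass without control array 1 either (limma adjusted p = 0.0595 with tieghemelin).

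Myh1, of type IIx fibres, read 10.73 and 10.36 with minoxidil, 8.59 and 8.62 with tieghemelin, 12.06 and 9.88 with maslinic acid, and 13.09 and 14.15 in control skin. All treated arrays were below both control arrays, and the tieghemelin arrays were lowest. Myh1 met the study's thresholds in the 3 comparisons with control (-3.08, -5.02 and -2.65, SE 0.69) and, without control array 1, fell by 5.55 with tieghemelin (limma adjusted p = 0.0179). Myh2, of type IIa fibres, read 8.62 and 6.91 with minoxidil, 7.77 and 8.24 with tieghemelin, 9.46 and 8.26 with maslinic acid, and 8.16 and 12.04 in control skin. Control array 1 lay within the treated range, and Myh2 met no threshold with all arrays. Without that array the differences were -4.28, -4.04 and -3.18, and the one with tieghemelin had a limma adjusted p of 0.0397.

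The 3 genes of the developmental class went different ways. Myh8, the perinatal heavy chain, read 13.19 and 13.31 with minoxidil, 11.20 and 10.38 with tieghemelin, 14.80 and 11.73 with maslinic acid, and 17.94 and 17.59 in control skin. Both control arrays were above all treated arrays, and the tieghemelin arrays were lowest. Its differences of -4.52, -6.97 and -4.50 (SE 0.86) met the study's thresholds, and without control array 1 Myh8 fell by 6.80 with tieghemelin (limma adjusted p = 0.0241). Myh3, the embryonic heavy chain, stayed near background at 6.96 and 7.40 with minoxidil, 7.61 and 7.40 with tieghemelin, 7.45 and 7.42 with maslinic acid, and 8.38 and 6.75 in control skin. Actc1, the actin of heart and developing skeletal muscle, ranged from 7.96 to 8.98 over the treated arrays, against 9.66 and 8.80 in control skin, and met the study's thresholds with minoxidil (-1.07, SE 0.45) with all arrays and without control array 2, but not without control array 1.

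Myh7, the slow heavy chain, read 7.75 and 7.51 with minoxidil, 7.97 and 7.74 with tieghemelin, 7.48 and 7.57 with maslinic acid, and 8.37 and 7.52 in control skin, within 0.89 log2 units over all arrays. On control array 2 Myh7 was below background. Myh1, Myh2, Myh4 and Myh8 are close relatives in sequence, and cross-hybridisation between their probe sets was not tested.

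Light chains sit on the neck of the myosin head. Mylpf, the fast regulatory light chain, read 15.44 and 13.23 with minoxidil, 10.07 and 8.60 with tieghemelin, 15.20 and 8.47 with maslinic acid, and 15.68 and 17.58 in control skin. Minoxidil array 1 and maslinic acid array 1 were close to control array 1, while maslinic acid array 2 was the lowest of all. Its difference was -7.29 (SE 1.89, 157-fold lower) with tieghemelin and -4.80 with maslinic acid, both at the study's thresholds, and -2.30 with minoxidil, which was not. Myl1, the fast essential light chain, read 16.64 and 13.32 with minoxidil, 10.34 and 10.64 with tieghemelin, 15.27 and 10.66 with maslinic acid, and 12.04 and 18.60 in control skin. The control arrays of Myl1 differed by 6.56, and with all arrays no treated group met the thresholds. Its differences on the other 7 arrays were -3.62, -8.11 and -5.63, at limma adjusted p-values of 0.366, 0.0653 and 0.185.

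The slow light chains were flat in comparison. Myl2, the slow regulatory light chain, ranged from 7.81 to 8.50 over the treated arrays, against 8.92 and 7.56 in control skin, the latter below background. Myl3, the slow essential light chain, lay between 9.87 and 10.10 on the 6 treated arrays and at 9.98 on control array 2, and only control array 1 was apart, at 8.66.

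Promoter sequences are shown for 4 genes whose arrays followed different courses: Mylpf, with the widest gap between maslinic acid arrays, Myh4 and Myh8, the heavy chains with the largest differences from control, and Tnnt1, which was flat. Each is the RefSeq window of GRCm38.p6 from 250 bases before the transcript start to 50 after it, read 5′ to 3′ on the strand of the gene. That assembly is of C57BL/6J and not of C3H. Capitals mark matches to the E-box CAGCTG, to the MEF2 motif, to the CArG box (a run of A or T between CC and GG, the site of serum response factor) or to TATAAA, which lies inside the MEF2 match in both myosin windows. Mylpf lies at chr7:127211358-127211657 (+), Myh4 at chr11:67237562-67237861 (+), Myh8 at chr11:67276874-67277173 (+) and Tnnt1 at chr7:4515926-4516225 (-).
Mylpf: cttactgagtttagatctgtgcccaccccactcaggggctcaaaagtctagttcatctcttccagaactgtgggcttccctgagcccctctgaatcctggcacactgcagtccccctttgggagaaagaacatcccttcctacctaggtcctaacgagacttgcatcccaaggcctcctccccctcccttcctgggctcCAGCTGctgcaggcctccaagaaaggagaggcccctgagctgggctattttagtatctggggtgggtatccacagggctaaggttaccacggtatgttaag
Myh4: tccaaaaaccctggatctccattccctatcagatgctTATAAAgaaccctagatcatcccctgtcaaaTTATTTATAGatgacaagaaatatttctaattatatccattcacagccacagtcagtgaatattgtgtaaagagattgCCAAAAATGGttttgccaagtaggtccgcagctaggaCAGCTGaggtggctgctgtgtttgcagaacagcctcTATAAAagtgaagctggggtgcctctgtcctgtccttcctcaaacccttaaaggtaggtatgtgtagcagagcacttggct
Myh8: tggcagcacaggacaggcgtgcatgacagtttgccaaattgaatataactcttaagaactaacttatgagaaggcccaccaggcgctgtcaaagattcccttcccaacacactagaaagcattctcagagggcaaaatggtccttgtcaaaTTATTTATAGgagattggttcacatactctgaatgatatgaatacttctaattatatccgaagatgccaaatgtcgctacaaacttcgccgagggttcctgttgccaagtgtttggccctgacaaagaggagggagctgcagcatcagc
Tnnt1: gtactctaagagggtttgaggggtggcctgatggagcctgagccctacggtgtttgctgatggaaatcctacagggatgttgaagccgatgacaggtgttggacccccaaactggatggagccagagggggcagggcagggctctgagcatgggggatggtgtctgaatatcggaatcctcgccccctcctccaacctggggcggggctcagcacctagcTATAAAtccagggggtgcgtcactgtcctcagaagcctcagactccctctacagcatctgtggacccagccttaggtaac

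The Mylpf window held 1 CAGCTG from base -51 to -46, counted from the transcript start. The Myh4 window held 1 CAGCTG (-67 to -62), 1 MEF2 match (-182 to -173), 1 CArG box (-104 to -95) and 3 TATAAA matches, the nearest at -31 to -26. The Myh8 window held 1 MEF2 match (-99 to -90), and the longest run it shared with Myh4 was the 17 bases TGTCAAATTATTTATAG, which contain that match. The Tnnt1 window held TATAAA at -30 to -25 and no MEF2 or CArG match.

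Of the 39 genes, 30 had RefSeq windows, 35 in all, which were searched on both strands beside 32851 windows of all genes. CANNTG, the general E-box to which myogenic factors of the MyoD family bind, was in 88.571% of member windows and 72.314% of all windows, and its form CAGCTG was in 40.0% and 16.301%. MEF2 matches were in 17.143% of member windows and 3.187% of all windows, the CArG box in 22.857% and 1.629%, and TATAAA in 34.286% and 13.616%. MEF2 matches were in windows of Klhl41, Myh1, Myh4, Myh8, Ttn and Xirp2, which gave 2 of 7 fast-class windows and 0 of 10 slow-class windows. CANNTG was in 5 of the 7 fast and 10 of the 10 slow windows. CArG boxes were in windows of both Myh4 and the slow gene Myl3. The windows are too few to compare the classes. These are letter matches in short windows and show neither binding nor control.

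Of the 6 actin and thin filament genes, 4 were lower than control at the study's thresholds with minoxidil, 5 with tieghemelin and 3 with maslinic acid. Over all probe sets 4.29%, 4.73% and 4.45% were called lower. Acta1, skeletal alpha-actin, read 12.09 and 11.58 with minoxidil, 9.69 and 8.97 with tieghemelin, 12.21 and 10.45 with maslinic acid, and 12.83 and 14.80 in control skin. No treated array reached either control array, and the tieghemelin arrays were below all others. Acta1 met the study's thresholds in the 3 comparisons with control (-1.98, -4.48 and -2.48, SE 0.77), and without control array 1 it fell by 5.46 with tieghemelin (limma adjusted p = 0.0179).

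Tropomyosins lie along actin and block or open the myosin sites. Tpm2, beta-tropomyosin, read 10.21 and 9.58 with minoxidil, 9.10 and 8.89 with tieghemelin, 11.41 and 9.84 with maslinic acid, and 13.21 and 13.80 in control skin. The groups did not overlap with control, the control arrays agreed within 0.6 log2 units, and the differences of -3.60, -4.51 and -2.88 (SE 0.56) met the thresholds. Tpm1, alpha-tropomyosin, which is also made outside muscle, read 13.82 and 12.96 with minoxidil, 10.85 and 10.33 with tieghemelin, 14.68 and 10.79 with maslinic acid, and 11.90 and 18.31 in control skin. Its control arrays lay 6.41 apart, on either side of the minoxidil arrays. The difference with tieghemelin was -4.52 with all arrays (limma adjusted p = 0.424) and -7.72 without control array 1, where Tpm1 fell (limma adjusted p = 0.0274).

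Neb, nebulin, which runs the length of the thin filament, read 9.48 and 8.62 with minoxidil, 6.85 and 6.18 with tieghemelin, 9.90 and 7.47 with maslinic acid, and 10.40 and 13.58 in control skin. Both tieghemelin arrays were below their background, so Neb was at least 31.8-fold lower than control with tieghemelin, and at least 95.9-fold without control array 1. Lmod2, leiomodin, which starts and lengthens actin filaments, read 7.62 and 7.60 with minoxidil, 7.01 and 6.51 with tieghemelin, 8.46 and 7.55 with maslinic acid, and 8.08 and 9.82 in control skin. It too was below background on both tieghemelin arrays, at least 3.88-fold lower than control with all arrays and at least 7.07-fold without control array 1. Both genes passed with tieghemelin on the 7 arrays, at limma adjusted p-values of 0.0179 for Neb and 0.0274 for Lmod2.

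Ttn, titin, spans from Z-disc to M-band as a spring. It read 11.50 and 10.70 with minoxidil, 9.76 and 9.66 with tieghemelin, 13.29 and 10.47 with maslinic acid, and 12.38 and 13.87 in control skin. Maslinic acid array 1 fell between the control arrays, and the other 5 treated arrays were below both. Ttn met the study's thresholds with tieghemelin (-3.41, SE 0.88) and not with minoxidil (-2.03) or maslinic acid (-1.25).

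Myosin-binding proteins C and H sit on the thick filament, and myomesins cross-link it at the M-band. Mybpc1, the slow-type binding protein, differed from the other slow genes: it read 9.98 and 9.68 with minoxidil, 9.77 and 9.02 with tieghemelin, 11.14 and 9.91 with maslinic acid, and 11.14 and 13.81 in control skin. Maslinic acid array 1 equalled control array 1 to 2 decimals, and the other treated arrays were lower. Its differences of -2.64, -3.07 and -1.95 (SE 0.83) met the thresholds, and it is the slow gene that passed with tieghemelin without control array 1 (-4.41, limma adjusted p = 0.0179). Mybpc2, the fast type, spanned 1.67 log2 units over the arrays and met no threshold with all arrays. Mybph was above background on 2 arrays only.

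Myom2, an M-band myomesin, read 8.47 and 7.58 with minoxidil, 7.04 and 7.19 with tieghemelin, 8.17 and 7.72 with maslinic acid, and 6.89 and 10.09 in control skin. The control arrays lay on either side of all 6 treated arrays, so the difference with tieghemelin was -1.37 with all arrays and -2.97 without control array 1 (limma adjusted p = 0.0274). Myom1 had the same split, at 7.77 on control array 1 and 10.57 on control array 2, with the treated arrays at 8.98 to 10.02.

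At the Z-disc, alpha-actinin cross-links the thin filaments. Actn2, the alpha-actinin of all fibres, read 8.99 and 8.57 with minoxidil, 8.58 and 8.75 with tieghemelin, 9.14 and 8.97 with maslinic acid, and 11.21 and 10.91 in control skin. Its treated arrays lay within 0.6 log2 units of one another and the control arrays within 0.3, and the groups did not overlap. Actn2 differed by -2.28, -2.39 and -2.0 (SE 0.36), with limma adjusted p-values of 0.44, 0.364 and 0.448, and without control array 1 it fell by 2.24 with tieghemelin (limma adjusted p = 0.0397). Actn3, the fast-fibre alpha-actinin, ranged from 8.24 to 9.15 on the treated arrays, against 8.78 and 11.40 in control skin, so only control array 2 was apart. It met the study's thresholds with tieghemelin (-1.78, SE 0.76), and without control array 1 it fell by 3.09 (limma adjusted p = 0.0241).

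Myoz1, which ties calcineurin to the Z-disc of fast fibres, read 10.32 and 10.16 with minoxidil, 9.03 and 9.49 with tieghemelin, 9.61 and 8.88 with maslinic acid, and 10.62 and 10.71 in control skin. The minoxidil arrays were between the control arrays and those of both other treatments. It was the only member lower at the study's thresholds with maslinic acid than with minoxidil (-1.0, SE 0.39, limma adjusted p = 1). Myot, myotilin, read 11.83 and 10.91 with minoxidil, 10.69 and 9.87 with tieghemelin, 11.32 and 9.96 with maslinic acid, and 8.60 and 14.11 in control skin, where the arrays lay 5.51 apart around all the others. Tcap, the titin cap, met the thresholds with minoxidil (-1.0) and tieghemelin (-1.12), and Ldb3, a Z-disc scaffold, met none with all arrays.

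Des, desmin, the intermediate filament that links Z-discs, read 8.04 and 7.66 with minoxidil, 7.02 and 7.16 with tieghemelin, 7.77 and 6.79 with maslinic acid, and 10.70 and 9.70 in control skin. All treated arrays were below both control arrays, and maslinic acid array 2 was below background. The differences of -2.35, -3.11 and -2.91 (SE 0.49) met the thresholds. Desmin is also made in smooth muscle, whose 10 marker genes had a median difference of -0.40 with minoxidil, -0.55 with tieghemelin and -0.36 with maslinic acid.

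Fhl1, a LIM protein of striated muscle that binds titin, read 9.93 and 8.33 with minoxidil, 8.07 and 7.94 with tieghemelin, 10.83 and 9.47 with maslinic acid, and 12.49 and 15.35 in control skin. All treated arrays were below both control arrays. Fhl1 differed by -4.80, -5.92 and -3.77 (SE 0.94) and, without control array 1, fell by 6.22 with minoxidil (limma adjusted p = 0.0418) and by 7.35 with tieghemelin (limma adjusted p = 0.0048).

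Klhl41, which steadies nebulin during sarcomere assembly, read 9.37 and 9.19 with minoxidil, 7.78 and 8.16 with tieghemelin, 9.17 and 7.82 with maslinic acid, and 10.26 and 12.02 in control skin, and met the thresholds in the 3 comparisons with control. Xirp2, an actin-binding repeat protein of the cell junctions of striated muscle, read 12.37 and 10.28 with minoxidil, 9.49 and 9.06 with tieghemelin, 10.78 and 9.32 with maslinic acid, and 9.92 and 11.48 in control skin. Minoxidil array 1 was its highest array, above both control arrays. Cryab, a small heat-shock protein that protects desmin, is made in many tissues and spanned 0.60 log2 units over the 8 arrays.

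By class, the fast genes had a median log2 difference from control of -2.25 with minoxidil, -3.95 with tieghemelin and -2.65 with maslinic acid, and all 11 were lower in each comparison, when 46.7%, 47.6% and 47.3% of all probe sets were lower. The slow genes had medians of -0.09, -0.09 and -0.33, with 5, 4 and 4 of 7 lower. The developmental genes had medians of -1.07, -0.73 and -0.45, and the shared genes -1.53, -2.29 and -1.10. On the 7 arrays without control array 1 the fast medians were -3.61, -5.55 and -3.47, and the slow medians were -0.07, 0.12 and 0.05. On control array 2, all 11 fast genes but only 4 of 7 slow genes were above background. Tnni1, Myh7 and Myl2 were below it, which limits how far they could fall from that array. At the study's thresholds with all arrays, the fast class had 4, 8 and 6 genes lower and the slow class 2, 1 and 1, against 4.29%, 4.73% and 4.45% of all probe sets. The slow calls were Tnni1 with minoxidil alone and Mybpc1 in the 3 comparisons. The difference between classes is given as a description and was not tested.

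**Figure D3:**
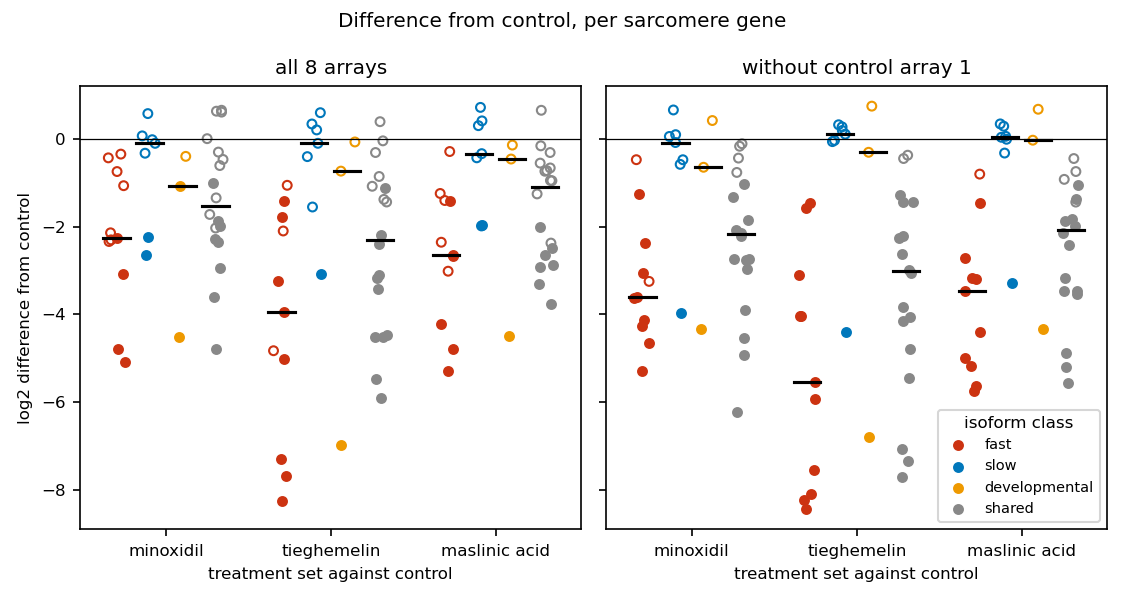
Log2 difference from control (y axis) of each of the 39 genes for the 3 treatments (x axis), with all 8 arrays (left) and without control array 1 (right); colours are isoform classes, filled points met the study's thresholds and black bars are class medians. The fast medians are -2.25, -3.95 and -2.65 on the left and the slow medians lie at -0.33 to -0.09.

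Between treatments, tieghemelin was set against minoxidil and maslinic acid. The tieghemelin arrays were lower than the minoxidil arrays at the study's thresholds for 8 genes (background 1.53%): Tnnt3, Myh1, Myh8, Mylpf, Acta1, Neb, Myoz1 and Xirp2. The median difference was -0.85 over the 39 genes, -1.81 over the fast class and 0.14 over the slow class. Both tieghemelin arrays were below both minoxidil arrays for 23 genes and above them for 3, when over all probe sets those shares were 23.6% and 20.3%. Mylpf had the largest of these differences (-5.0, SE 1.89), and Neb was at least 4.15-fold lower. Without control array 1, which enters only through the shared spread, 15 genes met the thresholds (background 5.47%). The count was 0 without minoxidil array 1 or without tieghemelin array 2, and 3 without minoxidil array 2 or without tieghemelin array 1. Over all probe sets the lower calls in those 4 fits were 0.59%, 0.522%, 1.39% and 0.374%.

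Tieghemelin arrays were lower than maslinic acid arrays at the study's thresholds for 6 genes (background 0.167%): Tnnt3 (-4.04), Myh8 (-2.48), Myh1 (-2.37), Ttn (-2.17), Acta1 (-2.0) and Tpm2 (-1.63). The count was 13 without control array 1 (background 0.878%), 10 without maslinic acid array 2, 3 without tieghemelin array 1, and 1 without tieghemelin array 2 or without maslinic acid array 1, when at most 0.234% of all probe sets were called lower in the last 4 fits. Maslinic acid against minoxidil gave 1 gene lower with all arrays (background 1.65%) and 1 without control array 1 (background 5.79%). Leaving out a maslinic acid array turned the direction. Without array 1, 4 genes were lower and 0 higher (0.707% of all probe sets lower). Without array 2, 0 were lower and 6 higher (0.842% of all probe sets higher), namely Myh1, Myh4, Myh8, Tnnt3, Tpm2 and Ttn, and the median was 0.37. With all arrays the median was -0.01 over the 39 genes. In these 3 comparisons limma's Benjamini-Hochberg adjustment left 0 of 22206 probe sets under 0.05, with 732, 68 and 800 at an unadjusted p of at most 0.05 for tieghemelin against minoxidil, tieghemelin against maslinic acid and maslinic acid against minoxidil.

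The maslinic acid arrays did not resemble each other in these genes. Over the 39 genes the median absolute gap between the 2 arrays of a group was 0.376 log2 units with minoxidil, 0.359 with tieghemelin, 0.978 with maslinic acid and 1.53 in control skin. Over all probe sets the same medians were 0.392, 0.294, 0.313 and 0.886. Maslinic acid array 1 was the higher one for 33 of the 39 genes and for all 11 fast genes, with a fast median gap of 2.18. It was so for only 2 of the 7 slow genes, with a slow median gap of -0.10. Over all probe sets maslinic acid array 1 was the higher for 11342 of 22206. The gap of 6.72 in Mylpf was the largest of all 22206 probe sets in that group, and 8 of its 20 largest gaps were of members: Mylpf, Myh4, Myl1, Tnnt3, Tpm1, Tnni2, Myh8 and Ttn. Among the 20 largest gaps there was 1 member with minoxidil, Myl1, and none with tieghemelin or in control skin.

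**Figure D4:**
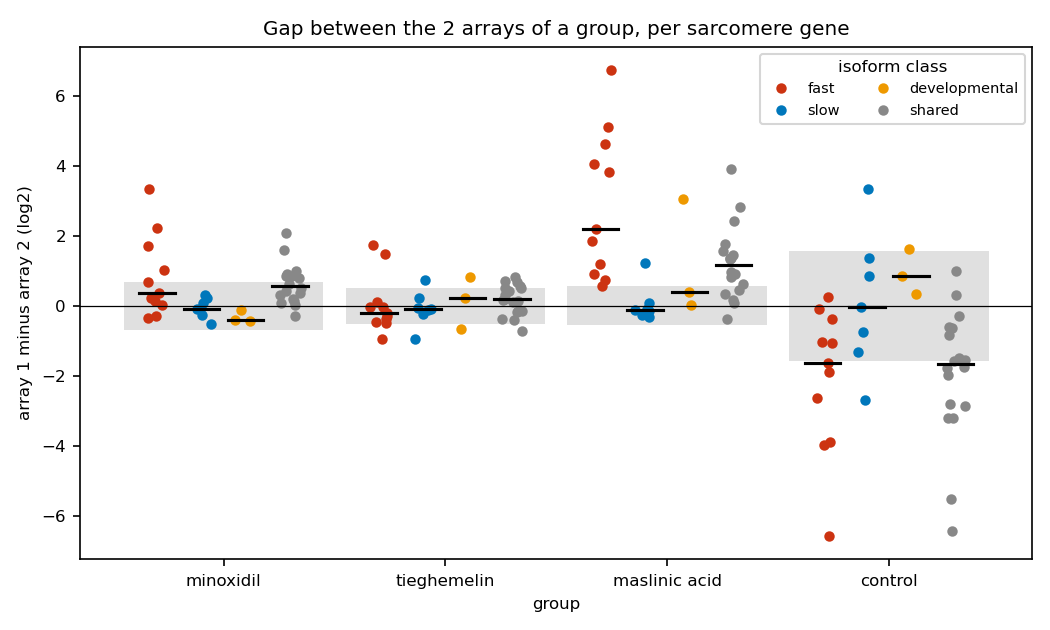
Log2 value on array 1 minus array 2 (y axis) for each of the 39 genes in the 4 groups (x axis), coloured by isoform class; black bars are class medians and grey bands span the upper quartile of the absolute gap over all 22206 probe sets, above and below 0. All 11 fast genes are above 0 with maslinic acid, at a median of 2.18, and 10 of 11 are below 0 in control skin.

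Set singly against the other groups, maslinic acid array 1 was above both minoxidil arrays for 25 genes and above both tieghemelin arrays for 31, including all 11 fast genes. Maslinic acid array 2 was below both minoxidil arrays for 23 genes, 9 of them fast, and against tieghemelin it was above both arrays for 20, between them for 9 and below both for 10. Over all probe sets array 1 was above both minoxidil arrays for 32.7% and above both tieghemelin arrays for 34.1%. Array 2 was below both minoxidil arrays for 37.3% of all probe sets, and it was above both tieghemelin arrays for 31.1%, between them for 35.4% and below both for 33.5%. The mean of the group thus lies between 2 unlike arrays, and each comparison with maslinic acid rests on both. Without array 2, 9 genes were lower than control at the study's thresholds (1.39% of all probe sets), without array 1 the count was 17 (1.92%), and with both it was 15 (4.45%).

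Across the 39 genes the gap between the maslinic acid arrays went with the difference between minoxidil and tieghemelin (Pearson r = 0.91, Spearman rho = 0.88). That difference uses none of the same arrays. Both were positive for 29 genes, and for 6361 of the 22206 probe sets. With control array 2 minus the tieghemelin mean, r was 0.88. Over all 22206 probe sets these correlations were 0.13 and 0.25. With the gaps within minoxidil and within tieghemelin the 39 genes gave 0.43 and 0.44, and all probe sets gave 0.07 and -0.17. The genes are not independent, share the same 8 arrays' normalization, and were chosen with these data known.

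**Figure D5:**
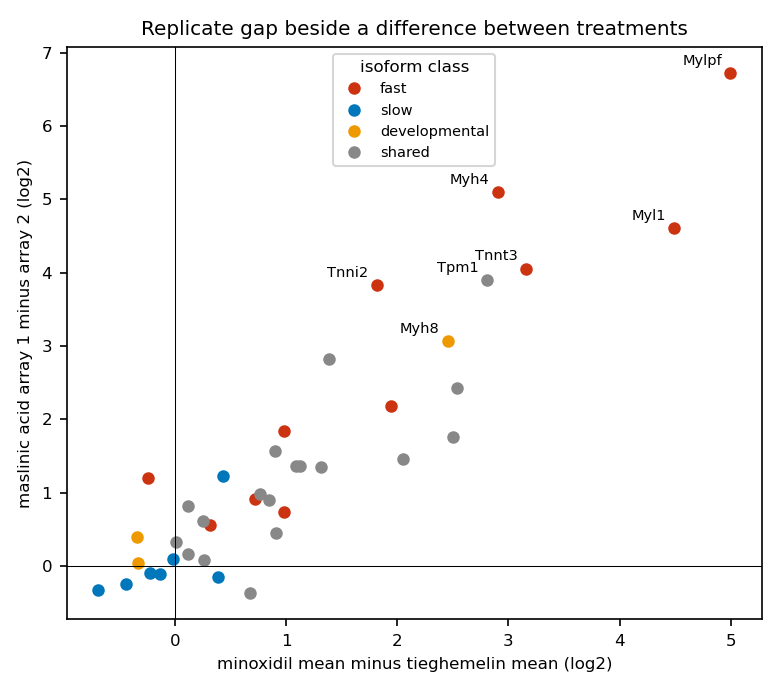
Each of the 39 genes by the minoxidil mean minus the tieghemelin mean (x axis, log2) and maslinic acid array 1 minus array 2 (y axis, log2), coloured by isoform class. The points rise together (r = 0.91), up to Mylpf at 5.0 and 6.72, and the slow genes lie between -0.69 and 0.44 on the x axis and between -0.32 and 1.23 on the y axis.

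In control skin the gap ran the other way for most genes. Array 1 was the higher for 9 of 39 genes, for 1 of 11 fast genes and for 10607 of all 22206 probe sets. The control gap reached 6.56 in Myl1, 6.41 in Tpm1 and 5.51 in Myot, while Myh4, Tnnt3, Myh8 and Actn2 agreed within 0.4. This direction depends on scaling: after quantile normalization control array 1 was the higher for 19 of 39 genes, with a median absolute gap of 1.59, whereas with maslinic acid array 1 was the higher for 33 of 39 either way.

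Other genes of muscle were read from lists of their own. Of 26 genes for calcium handling and energy supply, 20 were lower than control with each treatment, and 5, 9 and 6 met the study's thresholds with minoxidil, tieghemelin and maslinic acid. The shares of all probe sets were those given for the sarcomere genes, 46.7%, 47.6% and 47.3% lower and 4.29%, 4.73% and 4.45% called lower. Atp2a1, the calcium pump of fast fibres, read 11.86 and 10.48 with minoxidil, 9.39 and 8.14 with tieghemelin, 10.99 and 9.98 with maslinic acid, and 12.63 and 14.02 in control skin. Their maslinic acid gap had a median of 0.82, with array 1 higher for 19 of 26. Lists of myogenic regulators, neuromuscular junction, dystrophin complex and heart muscle had medians between -0.32 and 0.05 against control in the 3 comparisons.

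Markers of other skin cells were also read beside these values. Of 10 keratinocyte markers, 6, 6 and 5 were lower with minoxidil, tieghemelin and maslinic acid than in control skin, with medians of -0.30, -0.40 and -0.18. These counts are near the shares of all probe sets that were lower, 46.7%, 47.6% and 47.3%. The mean level of that list was 8.59 to 9.38 on the minoxidil arrays, 8.67 to 8.79 with tieghemelin, 8.99 to 9.06 with maslinic acid, and 8.55 and 9.87 on control arrays 1 and 2. Its medians without control array 1 were further below 0, at -1.06, -1.46 and -1.19, when those over all probe sets were 0.044, 0.018 and 0.008. Medians of 9 dermal fibroblast markers were -1.05, -0.76 and -0.35 with all arrays and -0.75, -0.65 and -0.78 without that one. Their part in the sarcomere values was not tested.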

How the data were processed

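RNA of mouse dorsal skin was measured on 8 arrays. The values deposited by the authors are log2 expression values per probe set, made with Transcriptome Analysis Console 4.0.1 per the series' design text, and with RMA and Affymetrix Expression Console per the submitters' processing notes; a genome build is not given in the sources used here. RMA corrects background and quantile-normalises probes across arrays, so differences in total signal are largely removed. The spread of the deposited values still differed, with an SD over all probe sets of 1.32 on control array 1 and 1.62 to 1.69 on the others. The log2 scale was taken from the value range, which ends at 19.93.

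The 6640 control probe sets were left out of the tests. Groups came from the labels. Limma 3.58.1 (R 4.3.3) fitted a linear model to 8 arrays with 4 residual degrees of freedom, eBayes moderation and Benjamini-Hochberg adjustment over 22206 probe sets. With 2 arrays against 2 the smallest 2-sided exact permutation p is 0.33. The number of arrays limits the precision. Fits were tested on simulated data. A gene with no array of a group above the median of 23 antigenomic probe sets, a rule chosen after seeing the data, is given as a bound, taking for each dim array whichever is larger, its own value or that median; the median is no detection call. Where a fit drops a control array, 3 residual degrees of freedom remain.

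Members, 12 companion lists (128 genes, 118 matched), motifs and the promoters shown were chosen with earlier results of these data known. Every member may be named; of other lists, those past the test or the largest. Alternatives were a replicate block, a brightness filter, quantile normalization, a common array median, eBayes with trend and robust settings, array weights, the 2 groups alone, and leaving out each array. Array numbers were not taken to pair samples. Correlations of deviations between groups over all probe sets ran from -0.17 to 0.09, which cannot exclude a pairing.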

Additional observations from a re-analysis of the deposited data

How the results depend on the processing

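No member called lower with all arrays changed sign under any of the 15 alternatives, but other members were called higher: 5 with minoxidil, 4 with tieghemelin and 5 with maslinic acid against control without control array 2, and 6 for maslinic acid against minoxidil without maslinic acid array 2. Leaving out 1 array at a time gave 8 to 25 members lower with minoxidil than in control skin (16 with all arrays), 16 to 29 with tieghemelin (21) and 9 to 26 with maslinic acid (15). The same ranges were 0 to 15 for tieghemelin against minoxidil (8), 0 to 4 for maslinic acid against minoxidil (1) and 1 to 13 for tieghemelin against maslinic acid (6). In these fits, the shares of all probe sets called lower changed too. With minoxidil, tieghemelin and maslinic acid against control, the shares of all probe sets were 2.17% to 20.7%, 1.42% to 21.2% and 1.39% to 21.0%. The highest shares against control came without control array 2. For those 3 pairs of treatments, in the order above, they were 0.374% to 5.47%, 0.513% to 5.79% and 0.0495% to 0.878%. Member medians ran from -2.20 to -0.69 for minoxidil, -3.05 to -1.32 for tieghemelin and -2.14 to -0.63 for maslinic acid against control, and from -0.95 to -0.57, -0.63 to 0.37 and -1.05 to -0.14 for those 3 pairs of treatments. The lower ends against control came without control array 1; without control array 2 the medians were -0.69 for minoxidil and -1.32 for tieghemelin, and without maslinic acid array 2 that of maslinic acid was -0.63. Probe sets passing limma's adjusted p against control ran from 0 to 8363, 0 to 8427 and 0 to 8282 for minoxidil, tieghemelin and maslinic acid, the high ends without control array 2, when control array 1, which stands apart, is the control alone.

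Array weights gave 9 members for minoxidil against control, when 1.26% of all probe sets were called lower. They gave 14 for tieghemelin against minoxidil (5.2%) and 15 for tieghemelin against maslinic acid (1.02%). The 2 groups alone gave 20 and 12 for the last 2 comparisons (5.51% and 0.892%). With the main settings the shares of the 3 comparisons were 4.29%, 1.53% and 0.167%. Quantile normalization moved the minoxidil median to -2.09, and keeping bright probe sets moved the tieghemelin median to -3.09. Quantile normalization and eBayes with trend and robust settings each gave 3 members for tieghemelin against maslinic acid (0.144% and 0.176% of all probe sets). Each gave 0 for maslinic acid against minoxidil (1.36% and 1.66%). The replicate block takes arrays of the same number as pairs, which is not known to be so. With it the counts were 14, 19 and 14 against control (3.95%, 4.51% and 4.17% of all probe sets). They were 7 for tieghemelin against minoxidil (1.28%), 0 for maslinic acid against minoxidil (1.27%) and 6 for tieghemelin against maslinic acid (0.122%). The causes of these shifts were not tested. Signal over background limits Tnni1, Mybph, Myh3, Neb and Lmod2, and on control array 2 also Myh7 and Myl2.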
